A study of Homo sapiens with 4 samples.

Results

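The Rab family of small GTPases, with the enzyme and the escort proteins that attach its lipid anchor, was examined in MDA-LM2 cells that had received an RNA decoy. Members were chosen by symbol: every gene named RAB followed by a number, without proteins that only bind Rabs, plus RABGGTA, RABGGTB, CHM and CHML. In the authors' deposited table, 68 of 19468 named genes were members, 64 of them RAB genes. A probe could be linked to 60 of the 68, and 34 of these (32 RAB genes, RABGGTA and CHML) had signal high enough to be tested, among 6480 genes in all.

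All samples were of MDA-LM2, a subline of the human breast cancer line MDA-MB-231 selected for its spread to the lung. The cells were transfected with a lipid reagent (Lipofectamine) and capped, poly-adenylated RNA and harvested after 48 h; the RNA was either the sRSE decoy, which carries tandem copies of the sRSE element and is meant to titrate the factor that binds it, or a scrambled sequence. Each group had 2 samples, hybridised to Illumina expression beadchips, and no untransfected cells were analysed here. Transfection reagent and foreign RNA were shared by both groups, so the contrast is samples given decoy RNA against samples given scrambled RNA. The labels do not say whether samples of a group were separate cultures, so a difference between cultures cannot be told apart from the decoy.

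A Rab protein switches between a GTP-bound form, which recruits effectors to a membrane, and a GDP-bound form, which GDP dissociation inhibitors extract. Guanine nucleotide exchange factors (GEFs) load GTP, and GTPase-activating proteins (GAPs) speed its hydrolysis. Before any of this, a Rab escort protein (CHM or CHML) presents the new Rab to Rab geranylgeranyl transferase, the heterodimer of RABGGTA and RABGGTB, which adds geranylgeranyl groups to cysteines at the Rab's C terminus.

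The median raw bead signal was 83.9 and 81.3 on the decoy arrays and 77.5 and 76.3 on the scrambled arrays, and 13402 to 13849 probes per array had a detection p under 0.01. Of the markers looked at, 5 of 7 breast and epithelial genes (CD44, KRT7, KRT8, KRT19 and KRT81) were detected. Only 1 of 5 mesenchymal-like basal markers (LGALS1) could be linked to a probe, and it was detected. KRT7 (0.39), KRT8 (0.41), KRT19 (0.62), KRT81 (0.62) and LGALS1 (0.46) were higher with the decoy on the log2 scale and passed the threshold, and CD44 (-0.21) did not pass. Of other cell types, 0 of 4 fibroblast markers, 1 of 5 leukocyte markers (CD14) and 1 of 3 endothelial markers (PECAM1) were detected. A probe was linked for 6 of the 7 breast and epithelial, 3 of 4 fibroblast, 4 of 5 leukocyte and all 3 endothelial markers. A marker without a linked probe could not be detected. CD14 read 272.1 and 292.1 on the decoy arrays and 269.4 and 273.7 on the scrambled arrays, and PECAM1 read 271.8 and 264 on the decoy arrays and 165.8 and 128.8 on the scrambled arrays. After normalization CD14 differed by -0.33 ± 0.11 and PECAM1 by 0.78 ± 0.14, both past the threshold, and the part of these markers in the results was not tested. Nothing in the labels says that the 2 samples of a group were separate cultures, so the spread between them may be technical, and the number of arrays limits precision. In RNA from whole cultures, fewer cells that express a gene and less RNA per cell cannot be told apart.

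The promoters of the members furthest apart are shown for context, RABGGTA and RAB1B on the higher side and RAB18 and RAB10 on the lower side. Each is the 250 bases before the start of the gene in RefSeq (GRCh38.p14), read 5′ to 3′ on the gene's strand, with capitals marking matches, on either strand, to the GC-box core GGGCGG. The E-box CACGTG was searched for as well, and so was the pentamer CCAAT; neither occurs in these 4 windows.
RABGGTA promoter, chr14:24271628-24271877, minus strand: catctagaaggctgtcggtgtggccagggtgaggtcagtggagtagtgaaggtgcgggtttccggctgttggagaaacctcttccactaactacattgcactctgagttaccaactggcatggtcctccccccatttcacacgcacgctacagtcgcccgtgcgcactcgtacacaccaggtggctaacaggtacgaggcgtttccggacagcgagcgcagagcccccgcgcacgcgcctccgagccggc
RAB1B promoter, chr11:66268389-66268638, plus strand: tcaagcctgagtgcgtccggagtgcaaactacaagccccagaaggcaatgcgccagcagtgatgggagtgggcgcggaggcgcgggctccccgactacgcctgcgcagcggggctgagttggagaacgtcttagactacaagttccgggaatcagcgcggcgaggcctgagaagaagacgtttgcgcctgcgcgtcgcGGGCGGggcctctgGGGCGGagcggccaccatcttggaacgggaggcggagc
RAB18 promoter, chr10:27504054-27504303, plus strand: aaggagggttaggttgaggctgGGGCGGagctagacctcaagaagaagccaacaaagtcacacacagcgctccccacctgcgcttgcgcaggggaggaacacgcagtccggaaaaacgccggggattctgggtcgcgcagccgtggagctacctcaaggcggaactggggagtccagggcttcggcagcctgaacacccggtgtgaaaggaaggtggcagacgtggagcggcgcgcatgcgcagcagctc
RAB10 promoter, chr2:26033834-26034083, plus strand: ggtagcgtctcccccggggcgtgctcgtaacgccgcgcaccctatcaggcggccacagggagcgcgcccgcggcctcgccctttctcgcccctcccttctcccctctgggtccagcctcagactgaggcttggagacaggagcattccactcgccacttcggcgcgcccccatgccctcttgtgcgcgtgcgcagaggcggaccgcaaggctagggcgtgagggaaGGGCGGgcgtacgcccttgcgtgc
The RABGGTA promoter held no GGGCGG, while RAB1B held 2 copies of GGGCGG and RAB18 and RAB10 held 1 each. The motif occurred in 25 of the 30 members with a promoter sequence (83.3%), in 69.4% of the promoters of genes tested and in 42.3% of all 27305 promoters of this length. By call, it was present in 3 of 5 higher members, 7 of the 7 lower members with a sequence (2 of the 9 have none) and 15 of 18 that did not pass. Over all genes tested the shares were 69.7% of higher, 67.9% of lower and 69.9% of the rest. The E-box occurred in 4 of the 30 members (13.3%), against 9.78% of genes tested and 6.49% of all promoters. CCAAT occurred in 8 (26.7%), against 36.6% and 33.0%. A match is a run of letters, not a binding site.

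After normalization, 14 of the 34 tested members passed the threshold (adjusted p under 0.05), 5 higher and 9 lower with the decoy. The members were linked to probes through the authors' table of this same contrast, and the family was proposed with the rise of RABGGTA known, so the members were in part selected on these values and are described here without a test. The background was high: 44.6% of all genes tested passed, 21.2% higher and 23.3% lower, against 41.2%, 14.7% and 26.5% of the members, and nothing is read from these shares. The median log2 difference, decoy minus scrambled, was -0.05 over the members and -0.03 over all genes tested. Its median size without sign was 0.21 over the members and 0.24 over all genes. Normalized values of the decoy and scrambled arrays did not overlap for 26 of 34 members (76.5%), and the same held for 75.5% of all genes tested.

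**Figure D1:**
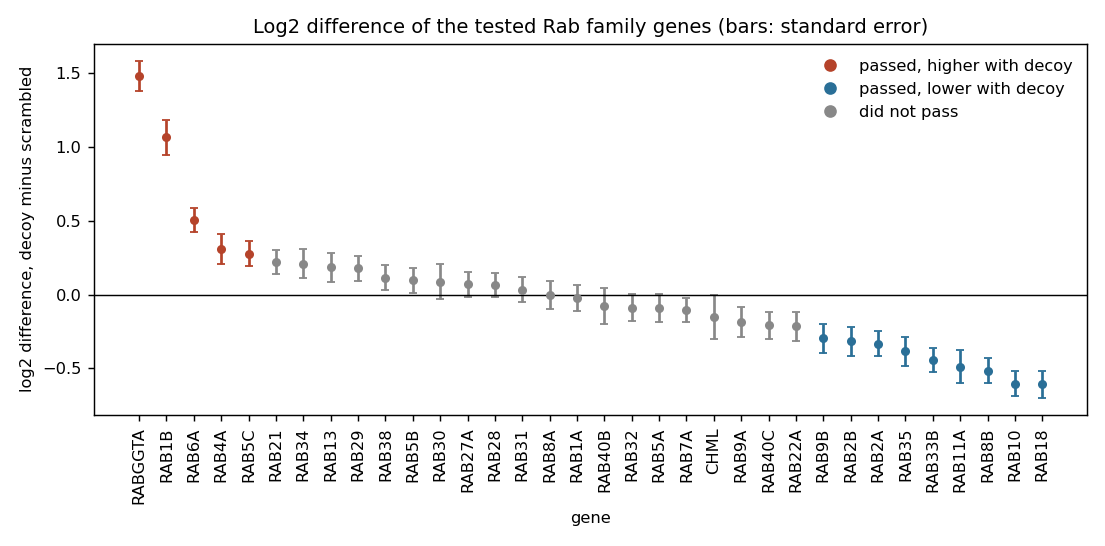
Log2 difference of normalized signal, decoy minus scrambled, for the 34 tested members (vertical axis, log2 units), ordered from highest to lowest along the horizontal axis. Points are limma estimates from 2 arrays per group. Bars are moderated standard errors, which borrow variance from all genes tested and are not the spread of those arrays alone. The 9 lower members lie between -0.30 and -0.61. RABGGTA was not above background on either scrambled array, so its point (1.48) is the fitted value and not an exact size.

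Among the prenylation proteins, RABGGTA, the alpha subunit of the transferase, was higher with the decoy. Its raw signal was 213.5 and 191.2 on the decoy arrays, against 86.7 and 92.9 on the scrambled arrays. Both decoy arrays lay above both scrambled arrays, and the signal was detected on 2 decoy arrays and not well above background on either scrambled array. The fitted log2 difference was 1.48 ± 0.10 (moderated SE, n = 2 each), which is not an exact size with the scrambled level below detection. With the scrambled level bounded by the lowest signal still detected, RABGGTA was at least 1.5-fold higher with the decoy. Without background correction the fitted difference was 0.93, and on the authors' normalized intensities it was 0.92. The probe entered the test only through the decoy arrays, where it is high.

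The other prenylation members showed no such difference or could not be measured. CHML, a Rab escort protein, had raw signals of 255.4 and 190.1 on the decoy arrays and 186.5 and 198.2 on the scrambled arrays. These overlap, and the log2 difference of -0.15 ± 0.15 did not pass. RABGGTB, the catalytic beta subunit, and CHM, the escort protein mutated in choroideremia, could not be linked to a probe, so no array values can be given. The authors' deposited table listed a log ratio of -0.0130 for RABGGTB, at percentile 4.1 of all its entries, and the authors' deposited table listed -0.0108 for CHM, at percentile 5.8. For RABGGTA the authors' deposited table held 2 transcript entries, 0.0328 (percentile 99.6), the one linked to the probe above, and 3.59e-05 (percentile 52.8), which was not linked. The base and transform of this ratio are not stated in the sources used here; set against the normalized intensities, it runs as decoy over scrambled. None of these entries comes with a replicate error.

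The 5 genes outside the family whose 4 array values, after subtracting each gene's mean, lay nearest to those of RABGGTA were IDE (distance 0.145 in log2 units), TMEM276 (0.192), IDH2 (0.222), CMTM7 (0.224) and BMP4 (0.231). The first encodes insulin-degrading enzyme, the third a mitochondrial isocitrate dehydrogenase and the last a bone morphogenetic protein. The nearest of them, IDE, read 462.3 and 430.9 on the decoy arrays, against 160 and 176.6 on the scrambled arrays. Its log2 difference was 1.38 ± 0.12, given without a test because the gene was picked for its likeness to RABGGTA. The other 4, like RABGGTA, were not well above background with scrambled RNA.

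In transport between the endoplasmic reticulum and the Golgi, RAB1B and RAB1A, which both act in that step, did not share a call. RAB1B had raw signals of 277.9 and 235.8 on the decoy arrays, against 135.8 and 114.7 on the scrambled arrays. Decoy and scrambled arrays did not overlap, and 1 of the 2 scrambled arrays detected the probe. The log2 difference was 1.07 ± 0.12, past the threshold, and with 1 scrambled array below detection it is not an exact size. The scrambled arrays alone would not have brought the probe into the test, so its rise is a description and not a test. RAB1A, by contrast, read 471.4 and 459.4 on the decoy arrays and 388.1 and 379.8 on the scrambled arrays, a log2 difference of -0.03 ± 0.09 after normalization that did not pass. Its raw signals were higher with the decoy on both arrays, as were those of most genes.

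RAB2A and RAB2B, which also act around the Golgi, were both lower. RAB2A read 413.6 and 370.9 on the decoy arrays and 413.7 and 361.5 on the scrambled arrays, and RAB2B read 1368.6 and 1069.6 on the decoy arrays and 1391.8 and 1231.1 on the scrambled arrays. In raw signal neither pair of groups separated; after normalization the log2 differences were -0.33 ± 0.08 for RAB2A and -0.32 ± 0.10 for RAB2B. RAB2A no longer passed with median scaling (-0.20) or without decoy replicate 1 (-0.35), decoy replicate 2 (-0.32) or scrambled replicate 1 (-0.29). RAB2B no longer passed without decoy replicate 2 (-0.21), scrambled replicate 1 (-0.30) or scrambled replicate 2 (-0.33).

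RAB6A, which directs carriers from the Golgi and back to the endoplasmic reticulum, was read by a pair of detected probes that disagreed. Probe a, which stood for the gene, read 1156.2 and 1016 on the decoy arrays, against 678.2 and 644.7 on the scrambled arrays. Its log2 difference was 0.51 ± 0.08. Probe b read 883 and 789.6 on the decoy arrays and 775.5 and 856.5 on the scrambled arrays. Those signals overlap, and the difference of -0.22 did not pass. With scrambled RNA probe b was the brighter, so probe a was chosen through its decoy signal, where it is high. With the mean of the 2 probes RAB6A differed by 0.15 and did not pass, so the higher call holds for probe a alone. RAB6A has close copies, RAB6B, RAB6C and RAB6D among the members, and whether a probe also reads a copy was not tested here, since probe sequences were not used.

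RAB33B, a Golgi Rab that also takes part in autophagy, was lower after normalization, at -0.44 ± 0.08. Its raw signals were 412.1 and 362.8 on the decoy arrays and 419.7 and 397.2 on the scrambled arrays, which overlap, and with median scaling the difference of -0.31 did not pass. RAB18, linked to lipid droplets and the endoplasmic reticulum, read 243.2 and 212 on the decoy arrays and 272.8 and 236 on the scrambled arrays. It had the lowest log2 difference among the members, -0.61 ± 0.09, close to RAB10 (-0.60), though the raw values of the groups overlap. RAB18 differed by -0.47 without background correction and -0.44 with median scaling, where RAB10 was lower (-0.59 and -0.71). With cyclic loess RAB18 stayed the lower of the pair (-0.59 against -0.57), and their order varied with the array left out. RAB30, another Golgi Rab, did not pass (0.09).

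**Figure D2:**
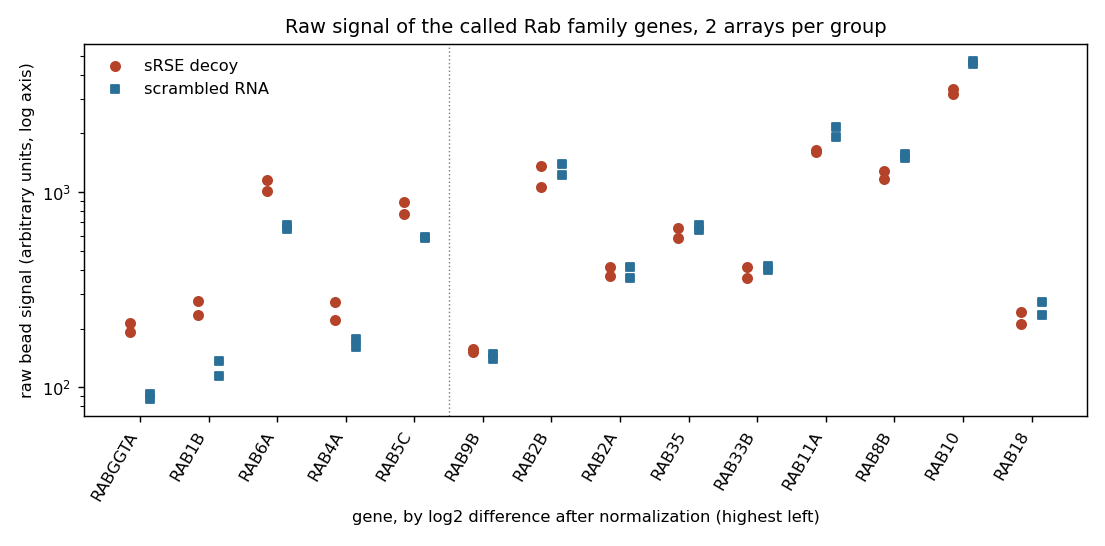
Raw bead signal (arbitrary units, log axis) on each array of the 14 members past the threshold, ordered by log2 difference after normalization; circles are decoy arrays, squares are scrambled arrays, and the dotted line parts the 5 higher from the 9 lower members. For the 5 higher members the decoy arrays lie above the scrambled arrays, and of the lower members RAB10, RAB8B and RAB11A have both decoy arrays below.

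In secretion and recycling to the cell surface, RAB10, RAB8B and RAB11A were lower with the decoy in raw and in normalized signal. RAB10, a regulator of exocytosis that delivers the glucose transporter GLUT4 in adipocytes, read 3381.8 and 3178.8 on the decoy arrays, against 4709.3 and 4517.7 on the scrambled arrays. Both decoy arrays lay below both scrambled arrays, and the log2 difference was -0.60 ± 0.08. RAB8B, which acts in traffic to the plasma membrane, read 1286.9 and 1167.4 on the decoy arrays and 1562.5 and 1501.2 on the scrambled arrays. It differed by -0.52 ± 0.08, again with no overlap. Its close relative RAB8A, which also serves the primary cilium, read 3663.9 and 3237 on the decoy arrays and 3574 and 2845.6 on the scrambled arrays, with a log2 difference of 0.00 ± 0.10 that did not pass.

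RAB11A, the Rab of recycling endosomes, read 1647.5 and 1599.1 on the decoy arrays and 1924.1 and 2147.7 on the scrambled arrays. The groups did not overlap, and the log2 difference was -0.49 ± 0.11. It no longer passed without decoy replicate 1 (-0.43) or decoy replicate 2 (-0.54). RAB35, which works in fast recycling and cytokinesis, was lower by -0.38 ± 0.10, with overlapping raw signals of 659.4 and 582.7 on the decoy arrays and 644.1 and 678.4 on the scrambled arrays. Its call was lost without decoy replicate 1 (-0.40), decoy replicate 2 (-0.36) or scrambled replicate 2 (-0.27).

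Of the early endosomal Rabs, RAB5C and RAB4A were higher. RAB5C, 1 of 3 isoforms that drive early endosome fusion, read 893.9 and 771.5 on the decoy arrays and 587.4 and 579.6 on the scrambled arrays with its brighter probe. That probe differed by 0.28 ± 0.09. The dimmer probe read 210.8 and 204.2 on the decoy arrays and 123.3 and 114.2 on the scrambled arrays, where it was not well above background, so no size is given for it. The other isoforms did not pass: RAB5A differed by -0.09 ± 0.10 and RAB5B by 0.10 ± 0.09. RAB4A, which returns receptors from early endosomes, read 273.1 and 222.2 on the decoy arrays and 178 and 160.3 on the scrambled arrays, without overlap, and differed by 0.31 ± 0.10. The RAB5C call was lost without decoy replicate 1 (0.24), decoy replicate 2 (0.31) or scrambled replicate 1 (0.22). That of RAB4A was lost without decoy replicate 1 (0.19) or scrambled replicate 2 (0.27).

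Of the late endosomal Rabs, RAB9B was called and RAB7A and RAB9A were not. RAB7A, which directs late endosomes to lysosomes, read 3553.9 and 3187.1 on the decoy arrays and 3612.9 and 3124 on the scrambled arrays, and its log2 difference of -0.10 ± 0.08 did not pass. It was -0.29 and passed with median scaling over probes detected on all 4 arrays. RAB9B, of the pair that returns cargo from late endosomes to the Golgi, was called lower at -0.30 ± 0.10, although its raw signals were 151.7 and 156.9 on the decoy arrays and 148.3 and 139.9 on the scrambled arrays. The raw order was thus opposite to the call, only 1 decoy array detected the probe, and the call was lost with median scaling (-0.11) and without decoy replicate 1 (-0.18), scrambled replicate 1 (-0.29) or scrambled replicate 2 (-0.30). RAB9A did not pass at -0.18 ± 0.10.

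The remaining tested members did not pass with the settings used here. They were RAB21 (0.22), RAB34 (0.21), RAB13 (0.18), RAB29 (0.18), RAB38 (0.11), RAB27A (0.07), RAB28 (0.07), RAB31 (0.03), RAB40B (-0.08), RAB32 (-0.09), RAB40C (-0.21) and RAB22A (-0.22). Among them RAB13 is known from tight junctions, RAB27A from the docking of secretory granules and exosome release, RAB29 as a partner of the kinase LRRK2, and RAB32 and RAB38 from the making of melanosomes. RAB29 passed with median scaling (0.35), and RAB21 passed without background correction (0.21) and on the authors' normalized intensities (0.22). With median scaling over probes detected on all 4 arrays, RAB29 (0.27) and RAB40C (-0.28) passed. Without scrambled replicate 2, RAB22A (-0.32) and RAB34 (0.31) passed. At the edge of the threshold, RAB4A (0.31) and RAB9B (-0.30) were just inside and RAB21 (0.22) just outside. RAB40C (-0.21) ranked next and lay further from the threshold.

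Close relatives were compared as sets with the same number. There were 6 sets with at least 2 tested genes. RAB2A and RAB2B were both called lower. In the RAB1, RAB5, RAB8 and RAB9 sets 1 gene passed and its relatives did not, and neither RAB40B nor RAB40C passed. The difference between relatives was not tested.

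**Figure D3:**
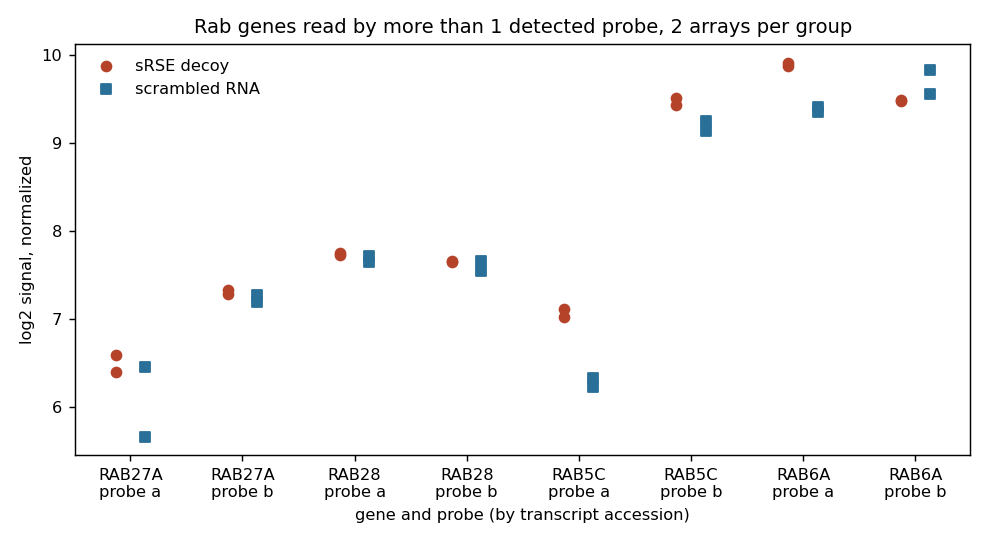
Normalized log2 signal (vertical axis) of the 8 probes of the 4 members read by 2 detected probes each; circles are decoy arrays and squares are scrambled arrays. Probe a of RAB6A is higher with the decoy (0.51) and probe b is not (-0.22), probe a of RAB5C was not above background on the scrambled arrays, and the RAB27A and RAB28 probes did not pass.

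Both RAB28 probes differed by under 0.1 (0.07 and 0.05), and neither passed. Of the RAB27A probes, the dimmer differed by 0.44 and the brighter by 0.07, with raw signals of 155.6 and 159 on the decoy arrays and 96.1 and 123.7 on the scrambled arrays for the dimmer, and neither passed.

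Raw signals were higher with the decoy in general. The median ratio of mean raw signals, decoy over scrambled, was 1.16 over all genes tested and 1.15 over the members, and normalization moves this shift to near 0. All 5 higher members had both raw decoy signals above both scrambled ones, as did all 1377 genes called higher. Of the 9 lower members, 3 had both below, 5 overlapped and 1 (RAB9B) had both above; of all 1512 genes called lower, 665 were below, 804 overlapped and 43 were above. Thus RAB10, RAB8B and RAB11A were lower on both arrays before any scaling. Of the other 6, RAB18 (ratio of mean raw signals 0.89), RAB2B (0.93), RAB35 (0.94) and RAB33B (0.95) had a lower raw mean with overlapping arrays. RAB2A (1.01) and RAB9B (1.07) had no lower raw mean, so their calls are relative to the general shift.

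**Figure D4:**
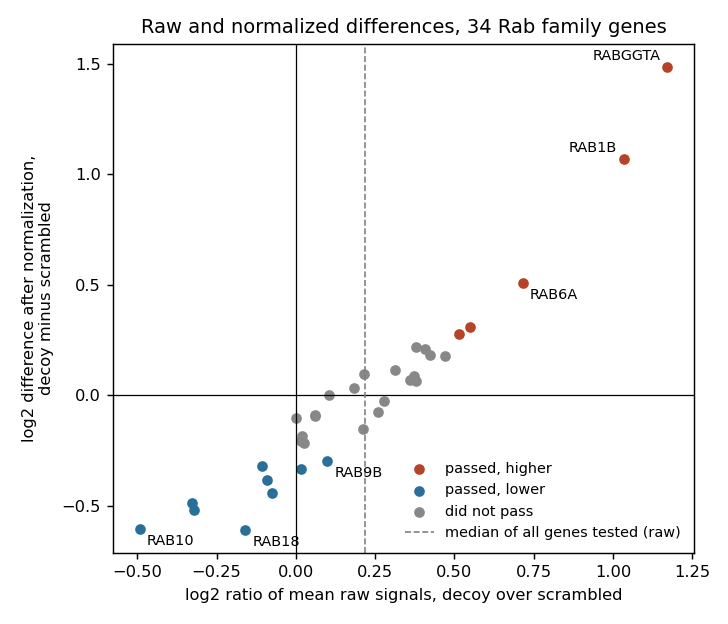
Log2 ratio of mean raw signals, decoy over scrambled (horizontal axis), against the log2 difference after normalization, decoy minus scrambled (vertical axis), for the 34 tested members; the dashed line is the median raw log2 ratio of all 6480 genes tested. The lower members lie left of the dashed line, and 2 of them (RAB2A and RAB9B) lie right of 0.

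Of the 60 members with a linked probe, 26 did not reach detection on 2 arrays, 25 of them detected on none. RAB36 was detected on 1 scrambled array. Their raw signals lay between 38.7 and 158.3. Members not above background included the neuronal secretory Rabs RAB3A, RAB3B and RAB3C, the epithelial RAB25 and RAB17, and the pseudogene RAB9BP1. RAB14, an endosomal and Golgi Rab, was also not detected, with raw signals of 77.9 and 69.9 on the decoy arrays and 82.5 and 87.3 on the scrambled arrays. RAB11B, the relative of RAB11A in recycling endosomes, read 106.7 and 94.4 on the decoy arrays and 81.6 and 72.7 on the scrambled arrays without detection. The others were RAB3D, RAB6B, RAB6C, RAB7B, RAB15, RAB19, RAB20, RAB23, RAB24, RAB26, RAB33A, RAB39A, RAB39B, RAB40A, RAB40AL, RAB41 and RAB42. Such signals put an upper bound on what these probes read and do not show that a gene is silent.

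Besides RABGGTB and CHM, 6 members had no linked probe: RAB4B, RAB12, RAB27B, RAB37, RAB43 and RAB6D. In the authors' deposited table RAB4B stood highest of them, with a log ratio of 0.00690 at percentile 88.8. The authors' deposited table gave 0.00284 (percentile 73.5) for RAB12 and -0.00167 (percentile 38.4) for RAB27B. The authors' deposited table also gave 0.00181 (percentile 66.8) for RAB43, -0.00176 (percentile 37.6) for RAB6D, and 0.00514 and 0.00405 for the 2 entries of RAB37.

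Among proteins that a GTP-bound Rab recruits, 23 of 40 listed effectors were measured, of which 6 rose, 5 fell and 12 did not pass (47.8% past the threshold, against 44.6% of all genes; median log2 difference -0.04, against -0.03 over all genes tested). OPTN, an autophagy receptor and effector of RAB8A, read 821.7 and 717.4 on the decoy arrays and 1079.2 and 989.3 on the scrambled arrays. It fell, with a log2 difference of -0.70 ± 0.08 and an adjusted p of 0.00100 by limma with Benjamini-Hochberg adjustment. RAB11FIP5, which binds RAB11A, also fell (-0.45 ± 0.08), and RPH3AL (0.65 ± 0.09), a regulator of secretory granules, and APPL2 (0.49 ± 0.09), an early endosomal adaptor, rose. In both RPH3AL and APPL2 the raw decoy signals lay above the scrambled ones.

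Of 48 listed GEF genes 26 were measured, of which 2 rose, 4 fell and 20 did not pass (23.1% past, against 44.6% of all genes tested; median -0.06). MON1A, part of the GEF of RAB7A, read 187.6 and 166.1 on the decoy arrays and 104.9 and 101.8 on the scrambled arrays. It was not well above background with scrambled RNA and was at least 1.23-fold higher with the decoy. Because MON1A entered the test only through the decoy arrays, where it is high, its rise is a description and not a test. RIN1, a GEF of RAB5 proteins, rose (0.55 ± 0.09). RAB3GAP1, a subunit of a GEF of RAB18, fell (-0.41 ± 0.08). RAB18 and RAB3GAP1 were both called lower, as were 23.3% of all genes tested, and a relation between them was not tested.

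Of 41 listed GAP genes 22 were measured, of which 3 rose, 4 fell and 15 did not pass (31.8% past, against 44.6% of all genes tested; median -0.08). TBC1D14, which has a TBC domain and acts in autophagy, read 1055.3 and 949.5 on the decoy arrays and 610.9 and 589.4 on the scrambled arrays and rose (0.53 ± 0.08). TBC1D10B (0.68 ± 0.15) and SGSM3 (0.28 ± 0.08) rose, and TBC1D2, a GAP of RAB7A, fell (-0.39 ± 0.11). With any array left out fewer GAP genes passed the threshold, and the same held for all genes tested.

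Among factors that extract Rabs from membranes or deliver them, 8 of 11 were measured, with 2 higher, 2 lower and 4 not past, so that 4 of 8 passed, against 44.6% of all genes tested (median -0.08). YIPF5, a Golgi membrane protein, read 403.5 and 374.8 on the decoy arrays and 561.9 and 572 on the scrambled arrays. It fell by 0.93 on the log2 scale (SE 0.09), with no overlap. RABAC1, an acceptor of prenylated Rabs, rose (0.52 ± 0.11), and YIF1B fell (-0.40 ± 0.10). Without decoy replicate 1 or decoy replicate 2 fewer of these genes passed, and the same held for all genes tested.

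Of 15 genes of other prenyl transferases, protein processing and the mevalonate pathway, which supplies geranylgeranyl diphosphate, 12 were measured, with 2 higher, 4 lower and 6 not past, so that 6 of 12 passed, against 44.6% of all genes tested (median -0.22, against -0.03 over all genes). FNTB, the beta subunit of farnesyl transferase, read 329.4 and 294.2 on the decoy arrays and 352 and 377.2 on the scrambled arrays and fell (-0.65 ± 0.10). MVD, mevalonate diphosphate decarboxylase, was at least 1.1-fold higher with the decoy and not well above background with scrambled RNA. Since MVD entered the test only through the decoy arrays, where it is high, its rise is a description and not a test. PMVK, phosphomevalonate kinase, rose (0.34 ± 0.08). ZMPSTE24, a protease that trims prenylated prelamin A, fell (-0.39 ± 0.09), and so did GGPS1, which makes geranylgeranyl diphosphate (-0.27 ± 0.09) and was named after its value was seen. The members that moved therefore include both directions within the mevalonate pathway. Without decoy replicate 1 or decoy replicate 2 fewer genes of this list passed, and the same held for all genes tested.

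Of 7 Rab-like GTPases, RAN included, 4 were measured, with 2 higher, 1 lower and 1 not past (75.0% past, against 44.6% of all genes tested; median 0.05). RABL6 read 455.2 and 408.9 on the decoy arrays and 254.5 and 225.9 on the scrambled arrays and rose (0.64 ± 0.08). IFT27, a small GTPase of intraflagellar transport, rose (0.27 ± 0.08), RABL2B fell (-0.43 ± 0.09) and RABL3 differed by -0.17 ± 0.11 without passing. Without decoy replicate 1 fewer of the 4 passed, and the same held for all genes tested.

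Base composition of the promoters was set against the differences as a description. The median GC content of the 250 bases was 66.8% over 30 members and 65.2% over 5306 genes tested. Across the 30 members, GC content and log2 difference had a Pearson r of -0.23 and a Spearman rho of -0.27, and across the 5306 genes both were 0.05; all points share the same 4 arrays. Gene span (on a log10 scale) had an r of -0.38 and a rho of -0.23 over the members, against -0.05 and -0.06 over the 5306 genes. Once RABGGTA and RAB1B were left out, r was -0.11 and rho -0.07 over the members, so that relation rested on them.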

How the data were processed

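Biotin-labelled total RNA of 4 MDA-LM2 samples, 2 per group, was hybridised to Illumina beadchips, per the labels. The authors deposited raw probe intensities (mean bead signal) with a detection p-value for each of 47323 probes, per the file headers. In 1 detection column 3 cells repeat the neighbouring signal and are not detection p-values. Those 3 values were replaced by the median detection p of the probes nearest in signal on that array. The rest of the column was used as deposited. The authors also deposited intensities normalized with lumi, per the submitters' processing notes, and a log10-like log ratio for 39747 accessions, with base and transform not given in the sources used here.

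No probe annotation was used. Accessions were linked to probes where the deposited log ratio matched, within 6e-10, the value recomputed from the normalized intensities of 1 probe only, which linked 32468 accessions (81.7%); tables shifted by a constant gave 108.4 links on average. Symbols come from RefSeq.

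Raw intensities were processed with neqc of limma 3.58.1 in R 4.3.3 (normexp with background estimated from detection p-values, offset 16, quantile normalization). Probes with a detection p under 0.01 on at least 2 arrays were kept (13889), and the probe with the highest mean log2 signal over all arrays stood for a gene. Groups were compared with lmFit and eBayes, with Benjamini-Hochberg adjustment over 6480 genes and a threshold of 0.05. All standard errors given are the moderated ones of eBayes, which borrow variance from all genes tested. Where a group was not well above background on both arrays, the fold is a bound.

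The members and gene lists were chosen with earlier results of these data known. Named in full were the transferase and escort genes, the members past the threshold with the largest differences (up to 10 each way), sets of relatives, up to 4 genes per list with the smallest p, and the 5 genes nearest to RABGGTA; 2 list genes that this rule names are not reported here. Same-numbered samples did not deviate together (r = -0.0111), so replicate numbers were not used as pairs. Alternatives were other scalings, filters, probe rules and background settings, a replicate block, and leaving out each array.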

Additional observations from a re-analysis of the deposited data

How the results depend on the processing

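RAB1B, RAB10, RAB8B and RAB18 kept their direction and their side of the threshold under every alternative in which they were tested, RAB1B not being tested where detection on all 4 arrays was required. The fitted difference of RAB1B was 0.75 without background correction and 0.78 on the authors' normalized intensities, against 1.07, and that of RABGGTA ranged between 0.92 and 1.61. No tested member past the threshold changed direction. Members past the threshold numbered 9 without a detection filter (of 60 members then tested, when 13.6% of all genes passed) and 8 to 12 with an array left out, against 14. Members called higher numbered 3 without a detection filter and 3 with detection on all 4 arrays, against 5. Fewer than 9 members were called lower with any array left out. The median difference over the members was -0.0023 with median scaling, -0.018 with cyclic loess, 0.0088 with no detection filter, -0.076 with detection on all 4 arrays, and -0.065 to 0.014 with an array left out, above 0 only without decoy replicate 1. It was -0.084 with median scaling over probes detected on all 4 arrays, an alternative chosen after seeing the data. With the replicate block 14 members passed, 5 higher and 9 lower, as without it. The block changed no other member's call.

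Effectors past the threshold numbered 6 without a detection filter and 6 to 10 with an array left out, against 11. GAP genes numbered 4 with median scaling, 1 without a detection filter and 1 to 6 with an array left out, against 7. GEF genes numbered 12 with the added median scaling and 3 to 6 with an array left out, against 6. With an array left out, extraction factors numbered 1 to 4, prenylation genes 1 to 6 and Rab-like genes 1 to 2. Median scaling called 1591 genes higher and 1005 lower, against 1377 and 1512; the cause was not tested, and the members then split 6 to 6. RAB29 gained a call there (0.35). RAB33B (-0.31) and RAB2A (-0.20) lost theirs. Without a detection filter RAB11A, RAB35, RAB2B, RAB4A, RAB5C and RAB9B lost theirs, with more genes in the adjustment, and RAB9B passed under neither cyclic loess nor a fit without background correction. Leaving out decoy replicate 1 or 2 left 1456 or 1370 of 2889 genes past the threshold, with 1 array fewer in the fit and the lone array assumed to vary like the other group. Signals near background limit RABGGTA, RAB1B and RAB9B.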
